A study of Mus musculus with 6 samples.

Results

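The T lineage transcription factors examined here were 10 named genes: Gata3, Tcf7, Lef1, Bcl11b, Runx1, Runx3, Myb, Ets1, Ikzf1 and Tox. They were chosen by name as regulators of T cell development and not ranked by their values, but earlier results of these data were known. All 10 were found among the 13185 gene rows of the table. The mouse cells belonged to a Notch1-driven T-cell leukaemia (T-ALL, the acute lymphoblastic kind), Notch1 being the receptor whose activation commits progenitors to the T lineage. One group of 3 libraries came from cells given 25 nM panobinostat, an inhibitor of histone deacetylases, for 2 h, and the other group of 3 libraries came from cells left untreated. Both groups were grown on plate-bound antibody 145-2C11 (2.5 ug/mL) against CD3, a part of the T cell receptor complex, and with IL-2 (100 U/mL), so receptor stimulation and cytokine were common to both. The labels did not give the strain, the Notch1 allele, whether the cells were 1 clone, or whether each library had its own culture or mouse. A p-value here speaks only of how far these libraries scatter, and that scatter may be technical.

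These factors act together in a network that builds and then holds T cell identity. Notch signalling in the thymus turns on Tcf7, whose protein TCF1 opens T cell genes, and Gata3, which is needed for commitment and later for helper T cells. Bcl11b then closes off other blood fates, while RUNX, MYB, ETS and Ikaros proteins, most of them made before commitment too, bind beside them at T cell enhancers. In T-ALL many of the same genes are mutated or misused, so that Bcl11b, Lef1, Runx1, Gata3 and Ikzf1 are known as leukaemia genes, and Myb as an oncogene.

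Each value below is a log2 level in CPM, counts scaled to the same read total in every library, in 1 library, as the authors deposited it, and a change is the treated mean minus the untreated mean on that log2 scale. Read depth was estimated from the spacing of low tied levels, at 6.01 to 7.74 reads per CPM. If levels were proportional to reads, the factors had between 150 reads (the lowest library for Tox) and 4200 reads (the highest for Ets1). Normalisation to a common distribution would break that proportion, so these read numbers are rough. On the same assumption the counting error alone was 0.12 on the log2 scale for Tox at its lowest and 0.03 for Ets1. Libraries of 1 group correlated with each other over genes at 0.964 to 0.976, and libraries of different groups at 0.923 to 0.947. The marker genes of T cells were present, with a summed level of 2420 to 2560 CPM in the untreated libraries. So were those of red cell precursors, led by the globin gene Hba-a1 at 11.33 ± 0.20 (SD, n = 3), with a sum of 6860 to 8100 CPM, and of myeloid cells, led by S100a8 at 9.91 ± 0.12, with a sum of 1310 to 1490 CPM.

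Of the 10 factors, 5 fell with panobinostat (Gata3, Myb, Runx3, Ikzf1 and Tox), 1 rose (Tcf7), and 4 did not pass the test (Lef1, Bcl11b, Runx1 and Ets1). Passing means a limma adjusted p below 0.05, with Benjamini-Hochberg adjustment over all 12554 tested genes. Over those genes 38.3% passed, 19.2% rising and 19.0% falling, which is the background for each count given here. For 8 of the 10 factors no treated library overlapped the untreated range, against 51.4% of tested genes. Each of the 10 factors had a higher mean level than at least 60.8% of tested genes, Tox being the lowest of them. Neither background share was taken over genes of like level. The median change of the factors was -0.35, in a range from -1.40 for Gata3 to 1.27 for Tcf7, beside a median of -0.01 over all tested genes. That small overall median and the like shares rising and falling are largely set by the normalisation, which left the library medians nearly equal. Leaving out 1 library at a time gave between 5 and 7 factors that passed, and without treated library 3 the number of rising genes in the whole table was 1587 in place of 2416.

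**Figure D1:**
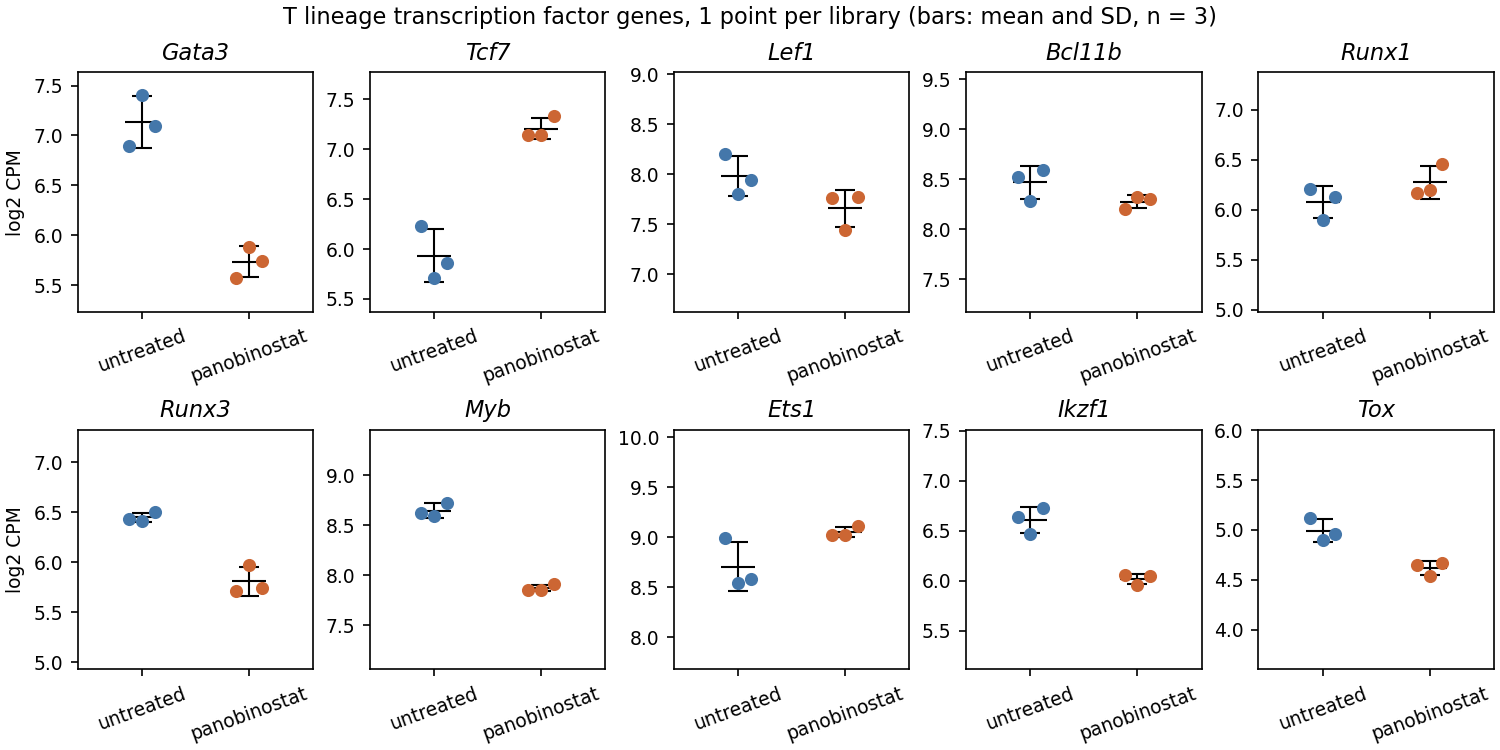
The log2 CPM of each of the 10 T lineage transcription factor genes is plotted for the 3 untreated and 3 panobinostat libraries, 1 point per library, with bars for the mean and SD. Every panel spans the same number of log2 units around its own centre. Gata3 moved from a mean of 7.13 to 5.73 and Tcf7 from 5.93 to 7.20, while the points of Bcl11b and Runx1 overlapped between groups.

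**Figure D2:**
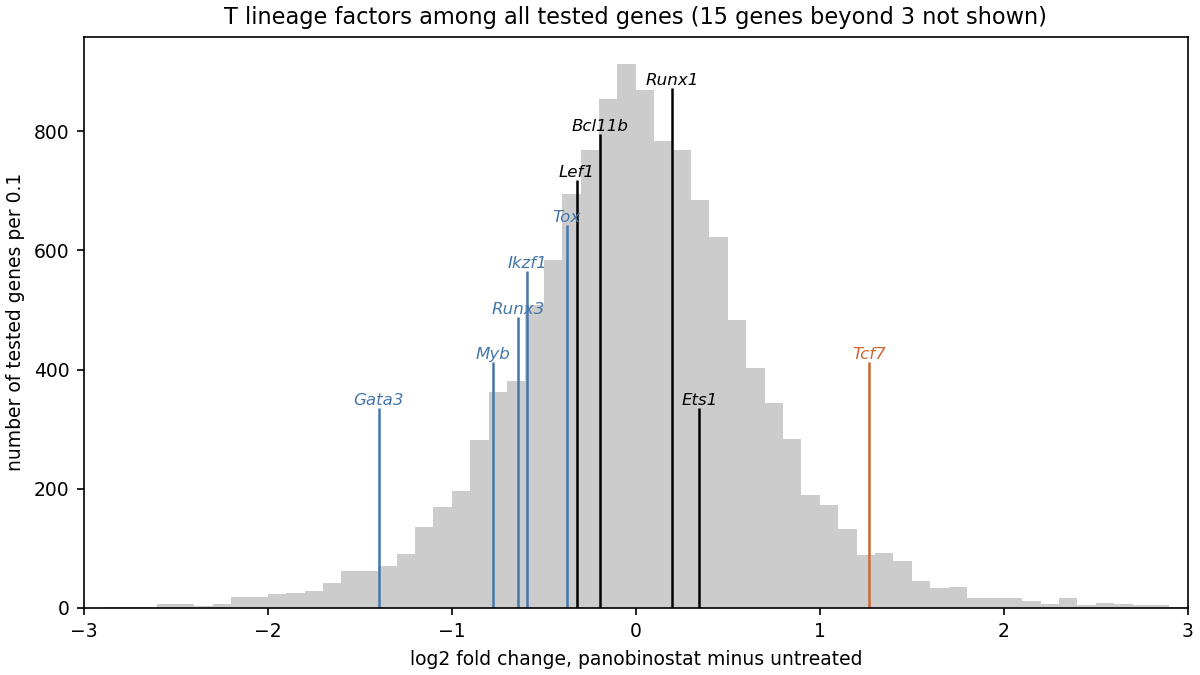
The histogram counts the 12554 tested genes by their log2 change with panobinostat in bins of 0.1, and vertical lines, whose height and order carry no meaning, place the 10 factors in it (blue fell, orange rose, black did not pass). The axis ends at 3 log2 units in each direction, and 15 genes lay beyond it. Gata3 at -1.40 and Tcf7 at 1.27 lie in the tails, and the other 8 factors lie between -0.77 and 0.35.

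Gata3, which encodes the zinc finger factor GATA3, showed the greatest fall of the set. Treated libraries 1 to 3 held 5.57, 5.89 and 5.74. The untreated libraries, in the same order of number, held 6.89, 7.41 and 7.10. The lowest untreated library lay a full log2 unit above the highest treated one, and no libraries overlapped. The mean went from 7.13 ± 0.26 to 5.73 ± 0.16 (SD, n = 3 each), a change of -1.40 with a standard error of 0.14 and a 95% interval from -1.73 to -1.07 (limma adjusted p = 0.000612). Treated cells thus held 38.0% of the untreated level. Gata1, the GATA factor of red cell precursors and a name added after its values were seen, fell by 0.65 (limma adjusted p = 0.0392), a call that was lost on leaving out any 1 of the 6 libraries. Gata3 lies on chromosome 2, positions 9857078 to 9890034 of mm10, on the minus strand. Its RefSeq window surrounds a start inside these positions and not at their 5' end. The window is shown for its single match to a searched motif, an ETS core in capitals.

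Gata3, chr2:9878551-9878850, minus strand: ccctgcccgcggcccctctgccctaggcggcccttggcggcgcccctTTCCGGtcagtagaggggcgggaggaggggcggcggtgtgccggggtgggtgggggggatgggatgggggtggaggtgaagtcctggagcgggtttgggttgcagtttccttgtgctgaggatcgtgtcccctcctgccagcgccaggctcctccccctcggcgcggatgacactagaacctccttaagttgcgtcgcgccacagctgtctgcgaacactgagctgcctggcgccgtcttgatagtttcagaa

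Tcf7 and Lef1 encode the 2 HMG-box proteins through which T cell progenitors read Wnt signals and open T cell genes, and their differences between the groups had opposite signs. Tcf7 was at 7.15, 7.14 and 7.33 in the treated libraries and at 6.23, 5.71 and 5.86 in the untreated ones. All treated libraries stood above all untreated ones, and untreated library 1 was the highest of its group. The mean of Tcf7 rose from 5.93 ± 0.27 to 7.20 ± 0.11 (SD, n = 3), a change of 1.27 with a standard error of 0.14 and a 95% interval from 0.95 to 1.59 (limma adjusted p = 0.000726), which is 2.41-fold. It was the single factor of the 10 that rose, and 93.3% of tested genes had a smaller absolute change.

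Lef1 was at 7.76, 7.44 and 7.77 in the treated libraries and at 8.20, 7.80 and 7.94 in the untreated ones. The groups did not overlap, but the highest treated library was only just under the lowest untreated one. The mean went from 7.98 ± 0.20 to 7.66 ± 0.19, a change of -0.32 (95% interval -0.62 to -0.02), which did not pass the test (limma adjusted p = 0.0841). Within each library Tcf7 minus Lef1 was -0.62, -0.31 and -0.44 with panobinostat and -1.97, -2.09 and -2.08 without it. The 2 sets of differences were far apart, with means of -0.45 ± 0.16 and -2.05 ± 0.07. The ratio of the normalised levels of Tcf7 and Lef1, which is not a ratio of reads, was thus 3.01-fold higher in treated libraries. An exact two-sided permutation test of this difference of 1.59 gave p = 0.1, the smallest that 3 libraries against 3 allow.

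Neither of the other TCF genes rose. Tcf7l1, whose product mostly represses Wnt target genes, fell from 4.23 ± 0.31 to 2.84 ± 0.12, a change of -1.39 (limma adjusted p = 0.00143). Tcf7l2 was at 2.85 ± 0.17 untreated and 2.20 ± 0.38 treated, a change of -0.64 that did not pass (limma adjusted p = 0.0627). Ctnnb1, which encodes their coactivator beta-catenin and was added after its values were seen, had a difference of 0.15 (95% interval -0.04 to 0.35, limma adjusted p = 0.193).

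Tcf7 lies on chromosome 11, positions 52252371 to 52283014 of mm10, on the minus strand. A pair of other listed transcripts overlap it, and no source used here gave the strand setting of the counting. The antisense gene A630014C17Rik, over the start of Tcf7, was at 1.77 ± 0.20 treated and 1.18 ± 0.38 untreated (limma adjusted p = 0.135). The long noncoding RNA Gm26551, on the same strand (51949882 to 52269514), starts inside Tcf7 and covers its 3' end. It was at 0.96 ± 0.54 treated and -0.14 ± 0.32 untreated (limma adjusted p = 0.0637). Reads of Tcf7 and of these neighbours cannot be told apart without the strand and annotation used. Both neighbours stood several log2 units below Tcf7 in level, which does not show how reads in the shared stretches were assigned. RefSeq gives Tcf7 2 start windows. The first held no match to any motif searched, and the second, shown here as the counterpart of the Gata3 window, held 1 ETS core in capitals.

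Tcf7, chr11:52282546-52282845, minus strand: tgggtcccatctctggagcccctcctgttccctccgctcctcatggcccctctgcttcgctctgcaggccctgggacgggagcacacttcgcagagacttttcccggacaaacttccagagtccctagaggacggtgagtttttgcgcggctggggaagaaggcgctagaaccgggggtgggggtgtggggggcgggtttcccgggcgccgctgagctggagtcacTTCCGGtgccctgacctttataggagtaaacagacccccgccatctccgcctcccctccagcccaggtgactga

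Bcl11b encodes the zinc finger factor that fixes T cell commitment, and its 6 libraries lay close together. It was at 8.20, 8.32 and 8.30 in the treated libraries and at 8.52, 8.28 and 8.59 in the untreated ones. Untreated library 2 lay inside the treated range, so the groups overlapped. The change was -0.19 with a standard error of 0.09 and a 95% interval from -0.41 to 0.02 (limma adjusted p = 0.142). The interval excludes a fall as large as that of Gata3 or Myb. Without untreated library 2 the change was -0.29 and passed the test (limma adjusted p = 0.0274). With any other single library left out it did not pass, and the change was as small as -0.13. Its relative Bcl11a, a factor of B cells and of the globin switch, was at 4.93 ± 0.22 untreated and 4.77 ± 0.16 treated, which did not pass (limma adjusted p = 0.395).

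Runx1 and Runx3 encode DNA-binding subunits that share the partner CBFb. Runx1 acts from blood stem cells onward, and Runx3 silences Cd4 and drives the cytotoxic T cell programme. Runx1 was at 6.17, 6.20 and 6.46 in the treated libraries and at 6.21, 5.90 and 6.13 in the untreated ones, with overlapping groups. Its change was 0.20 with a 95% interval from -0.08 to 0.47 (limma adjusted p = 0.226). Runx3 was at 5.71, 5.98 and 5.74 treated and at 6.44, 6.41 and 6.50 untreated, and here every treated library was below every untreated one. Runx3 fell by 0.64 with a standard error of 0.10 and a 95% interval from -0.86 to -0.42 (limma adjusted p = 0.00234), to 64.1% of the untreated level.

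Runx1 minus Runx3 within a library was 0.46, 0.22 and 0.72 with panobinostat and -0.23, -0.51 and -0.37 without it. The sign of the difference thus changed between groups in all libraries, although levels of 2 different genes do not rank their transcripts. The difference between the group means was 0.84, or 1.79-fold in the ratio of normalised levels (exact two-sided permutation p = 0.1, again the smallest possible). Cbfb, the gene of the shared partner and a name added after its values were seen, was at 5.47 ± 0.25 untreated and 5.63 ± 0.19 treated (limma adjusted p = 0.425).

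**Figure D3:**
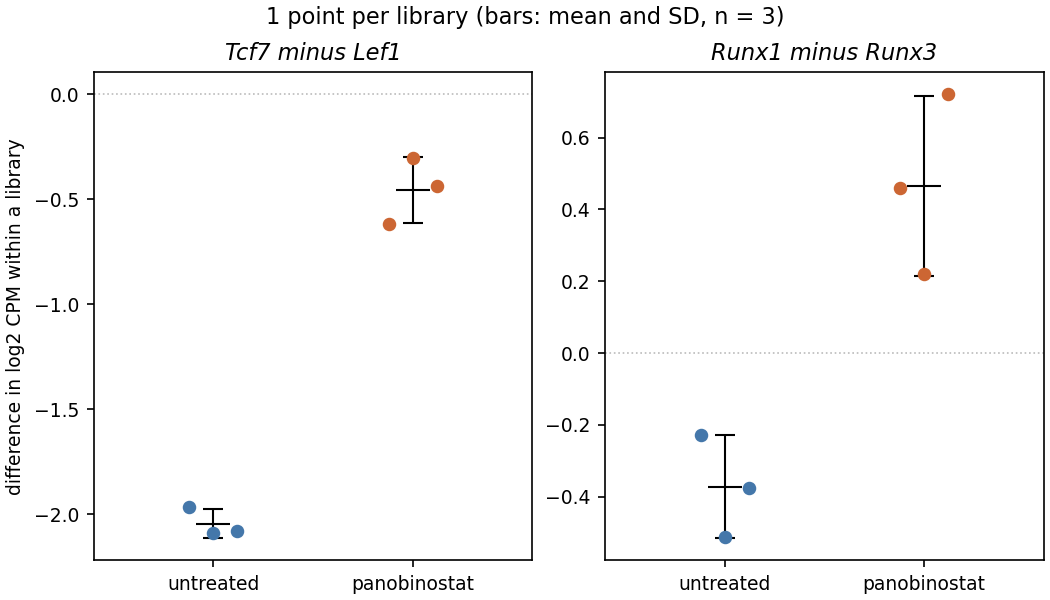
The log2 difference between the genes of a pair within each library is plotted for Tcf7 minus Lef1 and for Runx1 minus Runx3, 1 point per library, with bars for the mean and SD (n = 3) and a dotted line at 0. The axis of each panel has its own range. Tcf7 minus Lef1 went from -2.05 ± 0.07 to -0.45 ± 0.16, and Runx1 minus Runx3 from -0.37 ± 0.14 to 0.47 ± 0.25.

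The Runx1 and Runx3 genes each have a distal and a proximal promoter, and the RefSeq windows of their upstream starts are set beside each other because they share a stretch of sequence. Runx1 lies on chromosome 16 (92601466 to 92826149, minus strand) and Runx3 on chromosome 4 (135120652 to 135177990, plus strand). Capitals mark matches to the motifs searched.

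Runx1, chr16:92826025-92826324, minus strand: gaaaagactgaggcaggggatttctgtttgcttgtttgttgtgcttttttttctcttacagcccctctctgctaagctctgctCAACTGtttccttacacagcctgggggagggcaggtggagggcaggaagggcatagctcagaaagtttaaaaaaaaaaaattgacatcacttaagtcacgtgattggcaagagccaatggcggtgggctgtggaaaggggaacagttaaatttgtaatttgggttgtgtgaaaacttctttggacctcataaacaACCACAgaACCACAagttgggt

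Runx3, chr4:135120395-135120694, plus strand: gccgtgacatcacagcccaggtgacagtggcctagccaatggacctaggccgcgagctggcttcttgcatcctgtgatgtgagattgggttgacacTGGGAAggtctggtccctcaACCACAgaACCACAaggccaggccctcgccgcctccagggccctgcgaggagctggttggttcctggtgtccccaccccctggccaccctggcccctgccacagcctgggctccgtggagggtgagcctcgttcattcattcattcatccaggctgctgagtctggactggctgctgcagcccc

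The longest identical run of the 2 windows was 18 bases, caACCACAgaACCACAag, which holds the complement of the RUNX core TGTGGT in tandem. It spanned bases 277 to 294 of the Runx1 window and bases 115 to 132 of the Runx3 window, counted from 1 at the 5' end. Of 32851 windows in the promoter table, 4 held this run, and they belonged to Runx1, Runx2, Runx3 and Gm16225. A pair of RUNX core matches occurred in 0.871% of the windows of tested genes, and a single match or more in 12.9%. Runx2 has no row in the table of levels, so its level is not analysed here.

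Myb encodes the factor c-MYB, which blood progenitors and thymocytes need for proliferation and survival, and its change had the smallest standard error of the set. It was at 7.86, 7.85 and 7.91 in the treated libraries and at 8.62, 8.59 and 8.73 in the untreated ones. The gap between the groups was several times the spread within either. Myb fell from 8.65 ± 0.07 to 7.87 ± 0.03 (SD, n = 3), a change of -0.77 with a standard error of 0.07 and a 95% interval from -0.93 to -0.62, and it had the smallest adjusted p of the 10 factors (limma adjusted p = 0.000386). Treated cells held 58.4% of the untreated level. Mybl2, the relative used by most dividing cells, fell from 7.13 ± 0.26 to 6.50 ± 0.11 (limma adjusted p = 0.00846). Mybl1 was at 2.88 ± 0.20 untreated and 3.34 ± 0.20 treated, which did not pass (limma adjusted p = 0.0752).

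Ets1 encodes a winged-helix factor that binds beside RUNX proteins at T cell receptor enhancers. It was at 9.02, 9.03 and 9.11 in the treated libraries and at 8.99, 8.55 and 8.58 in the untreated ones. Untreated library 1 lay almost at the treated level while the other untreated libraries lay well below it. The change of 0.35 (standard error 0.12, 95% interval 0.07 to 0.62) narrowly missed the threshold (limma adjusted p = 0.0526). Without untreated library 1 it was 0.49 and passed (limma adjusted p = 0.00138). With any other single library left out it did not pass, and the change went down to 0.27. On the first principal component of the tested genes untreated library 1 was also the untreated library nearest to the treated ones, at 25.7 against 41.0 and 48.0 for the other untreated libraries and -43.2 to -35.4 for the treated ones.

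Relatives of Ets1 that passed the test all fell. Elf1, which binds at many T cell genes, went from 6.92 ± 0.10 to 6.05 ± 0.17, a change of -0.87 (limma adjusted p = 0.0011), and Elf4, which restrains proliferation of cytotoxic T cells, changed by -0.59 (limma adjusted p = 0.00485). Fli1, a factor of blood stem cells and platelets' precursors, changed by -0.56 (limma adjusted p = 0.00581). Gabpa and Elf2, added after their values were seen, changed by -0.74 and -0.38 (limma adjusted p = 0.0104 and 0.0258), and the call of Elf2 was lost without any of treated libraries 1, 2 and 3 or without untreated library 3 (-0.40 to -0.36). Ets2 was at 6.05 ± 0.15 untreated and 5.98 ± 0.19 treated (limma adjusted p = 0.651), and Etv6, also added later, was at 5.21 ± 0.05 and 5.22 ± 0.05 (limma adjusted p = 0.976).

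Ikzf1 encodes Ikaros, a zinc finger protein that works with the NuRD chromatin complex and whose loss is common in lymphoid leukaemia. It was at 6.05, 5.96 and 6.04 in the treated libraries and at 6.64, 6.46 and 6.72 in the untreated ones, with no overlap. Ikzf1 fell by 0.59 with a standard error of 0.09 and a 95% interval from -0.80 to -0.38 (limma adjusted p = 0.00271), to 66.4% of the untreated level. Of its relatives, Ikzf2 (Helios) changed by -0.65 (limma adjusted p = 0.00974) and Ikzf3 (Aiolos) by -0.78 (limma adjusted p = 0.00402). Ikzf4 (Eos), a gene of regulatory T cells, fell from 2.18 ± 0.17 to 0.12 ± 0.83, a change of -2.05 at a low read number (limma adjusted p = 0.00792). Ikzf5, added after its values were seen, was at 6.68 ± 0.18 untreated and 6.82 ± 0.07 treated (limma adjusted p = 0.312). Thus 4 Ikaros family genes fell and Ikzf5 did not pass.

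Tox encodes an HMG-box factor needed for CD4 T cell development and known from exhausted T cells. It was at 4.65, 4.54 and 4.67 in the treated libraries and at 5.12, 4.90 and 4.96 in the untreated ones. The groups did not overlap, though treated library 3 lay only a little under untreated library 2. Tox fell by 0.38 with a standard error of 0.11 and a 95% interval from -0.62 to -0.13 (limma adjusted p = 0.026), to 77.1% of the untreated level. The call did not hold with fewer libraries: the change was -0.39, -0.34 and -0.40 without treated library 1, 2 or 3 and -0.39 without untreated library 3, with limma adjusted p between 0.0613 and 0.0868. Among its relatives Tox4, a more broadly expressed gene, rose from 5.86 ± 0.11 to 6.28 ± 0.06 (limma adjusted p = 0.00857). Tox2 was at 1.68 ± 0.49 untreated and 0.98 ± 0.37 treated and did not pass (limma adjusted p = 0.145).

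**Figure D4:**
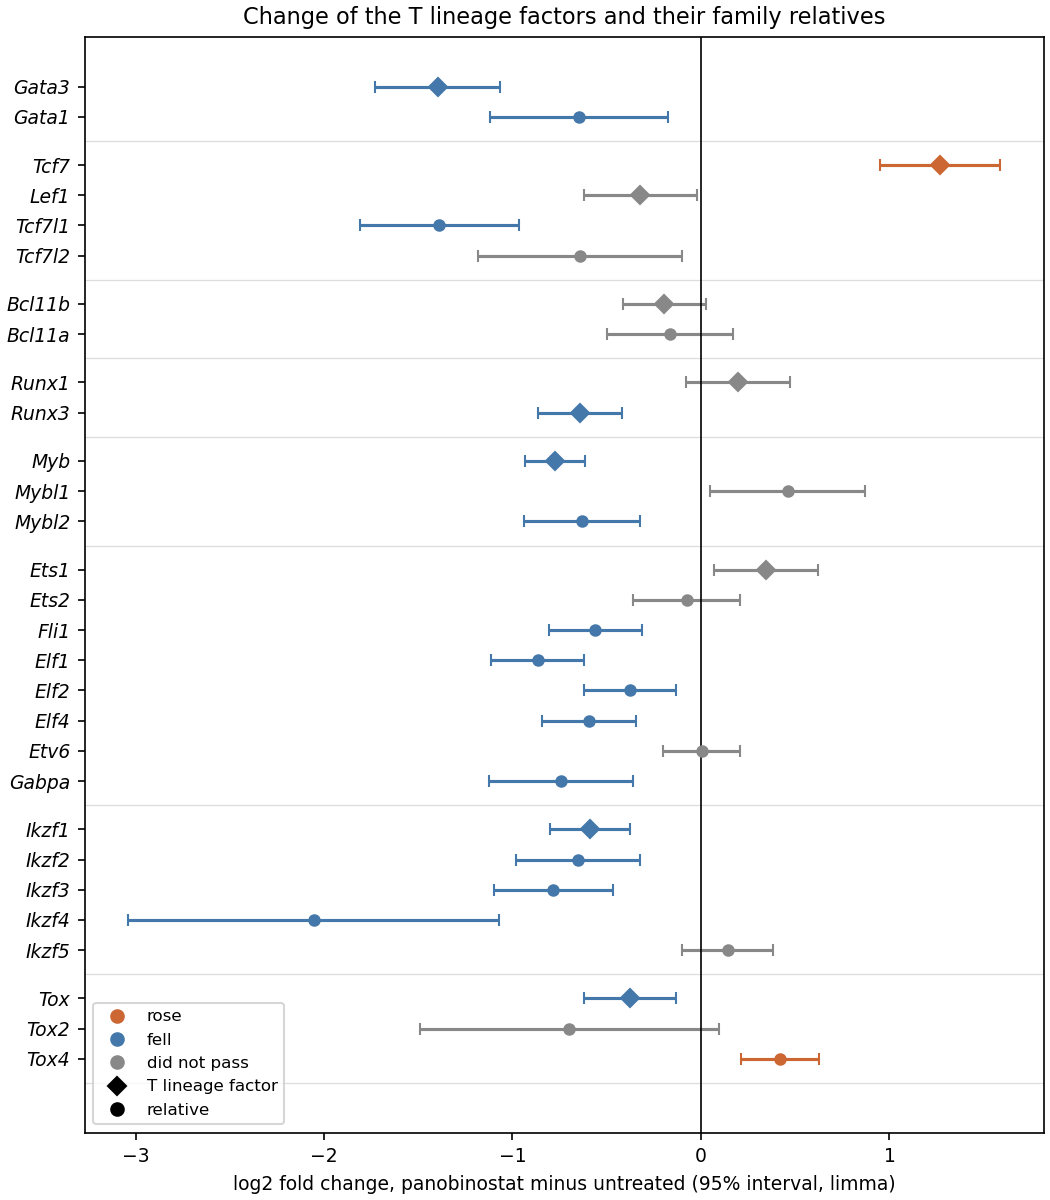
The log2 change with panobinostat and its 95% interval from limma is drawn for each of the 10 factors and for their tested relatives, grouped by family, with a line at 0. Diamonds are the factors and circles their relatives, in blue where they fell, orange where they rose and grey where they did not pass an adjusted p of 0.05. Of 19 relatives 11 lie to the left as falls, and Tox4 at 0.42 is the 1 that rose.

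Over all families, 11 of 19 relatives fell, 1 rose and 7 did not pass, and their median change was -0.63. The share of relatives that passed was 63.2%, beside 38.3% of all tested genes. Of the 10 factors, 60% passed. Neither share was compared with that of tested genes of like level.

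The partners through which these proteins act gave both directions. Of 20 partner and cofactor genes, 4 rose, 3 fell and 13 did not pass, which is 35% passing with a median change of 0.10. Crebbp, the histone acetyltransferase that binds MYB and TCF proteins, fell from 7.39 ± 0.07 to 6.19 ± 0.01, a change of -1.19 (limma adjusted p = 0.0002). Chd4, the ATPase of the NuRD complex with which Ikaros works, rose from 9.95 ± 0.11 to 10.58 ± 0.04, a change of 0.63 (limma adjusted p = 0.00107). Bcl9l, a bridge from beta-catenin to transcription, rose by 0.60 (limma adjusted p = 0.00208). The corepressor genes of the ETO family split, with Cbfa2t2 at 0.75 and Cbfa2t3 at -0.53 (limma adjusted p = 0.00817 and 0.0213). Tle2, a Groucho corepressor of TCF and RUNX proteins, rose by 1.48 from a level of -0.45 ± 0.32 (limma adjusted p = 0.0217). Aes, another Groucho relative and named after its values were seen, fell by 0.37 (limma adjusted p = 0.0355), a call lost on leaving out any library except untreated library 1. The number of partners passing was 4 without treated library 2 or without untreated library 3. The calls of Cbfa2t3 and Tle2 were among those lost in each of these cases.

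Other transcription factors of the T lineage also went both ways, with 7 rising, 8 falling and 11 not passing of 26 tested, and a median change of -0.09. The 2 inhibitors of E proteins, the basic helix-loop-helix factors of early lymphocytes, moved in opposite directions. Id2 fell from 7.64 ± 0.05 to 6.10 ± 0.12, a change of -1.54 (limma adjusted p = 0.000135), and Id3 rose from 3.67 ± 0.61 to 6.25 ± 0.31, a change of 2.57 (limma adjusted p = 0.000899). Irf4, induced by T cell receptor signals, rose by 1.36 (limma adjusted p = 0.000303). Gfi1, a repressor needed by early thymocytes, changed by -1.26 (limma adjusted p = 0.000808), the lymphocyte factor Zbtb1 by -1.13 (limma adjusted p = 0.00168) and the HMG-box factor Sox4 by -0.62 (limma adjusted p = 0.00177). The number passing fell to 9 without treated library 1 and to 8 without treated library 2.

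Of the transcription factors known mainly as T-ALL oncogenes, 7 of 15 had a row and 6 were tested, of which 2 fell and none rose. The share passing was 33.3%, beside 38.3% of all tested genes. Spi1, the myeloid and early progenitor factor PU.1, fell from 3.63 ± 0.08 to 2.31 ± 0.28 (limma adjusted p = 0.00185). Myc, a direct Notch1 target in T-ALL, fell from 1.43 ± 0.25 to -0.71 ± 0.84 (limma adjusted p = 0.0107), at the low end of the measured range. The other 4 did not pass. Their differences were -0.41 for Tal1 and -0.40 for Lyl1, a pair of basic helix-loop-helix genes (limma adjusted p = 0.0505 and 0.247). They were -0.35 for their partner Lmo2, which is also counted among the partner genes above, and -0.11 for Mef2c (limma adjusted p = 0.225 and 0.526). Without untreated library 1 the number passing was 4, with Tal1 and Lyl1 among them.

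Genes that textbooks give as targets of the 10 factors were mostly lower where they passed. Of 34 tested targets 18 fell, 2 rose and 14 did not pass, with a median change of -0.32. With 1 library left out, between 14 and 21 targets passed. Cd27, a costimulatory receptor, fell from 8.13 ± 0.10 to 6.30 ± 0.06, a change of -1.83 (limma adjusted p = 8.93e-05). Its fellow receptors Cd28 and Cd6 changed by -0.91 and -1.48 (limma adjusted p = 0.000425 and 0.000831). The receptor kinases Lck and Zap70 changed by -0.82 and -0.84 (limma adjusted p = 0.000425 and 0.00142), and the T cell receptor beta constant gene Trbc1 by -0.68 (limma adjusted p = 0.000606). The 2 that rose, named after their values were seen, were Rag1 at 0.54 and the Wnt target Nkd1 at 1.46 (limma adjusted p = 0.0164 and 0.0319). Neither call held throughout: that of Rag1 was lost without treated library 1 or 3 or untreated library 3, and that of Nkd1 without treated library 2 or 3 or untreated library 2 or 3.

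**Figure D5:**
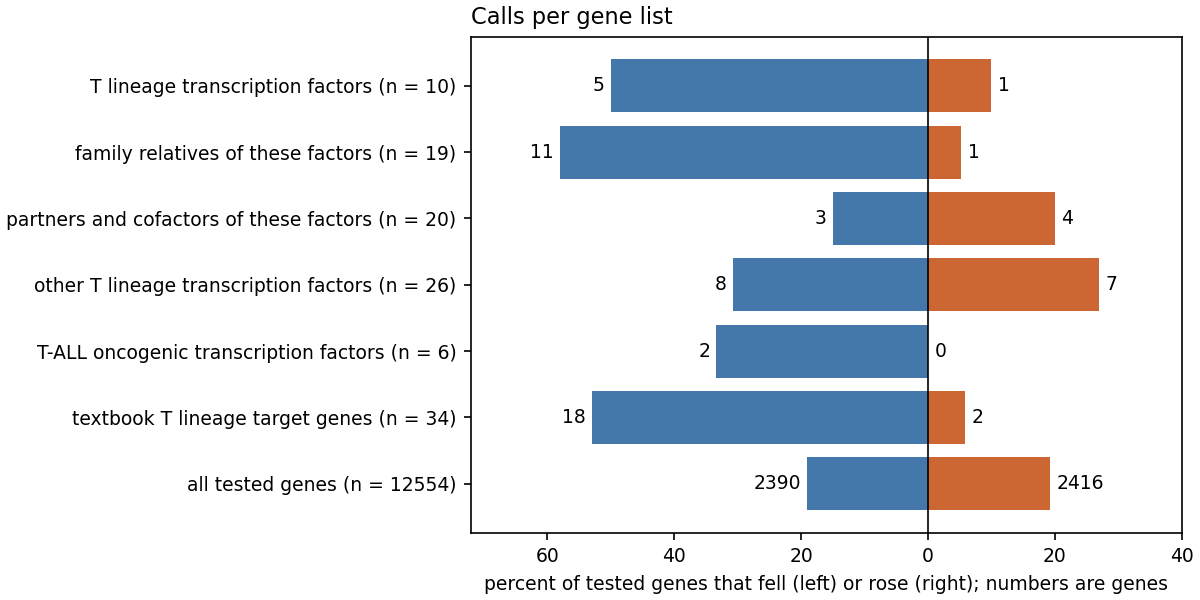
Bars show, for the 10 factors, each list of related genes and all 12554 tested genes, the percent that fell (left) or rose (right) at a limma adjusted p of 0.05, with the number of genes at each bar and the number tested in each label. The factors stand at 5 falls and 1 rise of 10, relatives at 11 and 1 of 19, and all tested genes at 19.0% and 19.2%.

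Summed levels of T cell, myeloid, B cell and erythroid markers were lower in the panobinostat libraries, by little for erythroid markers, whose single genes went both ways. All 10 T cell markers are also among the 34 targets above, so their falls were already counted there and are not a separate result. The summed level of 10 T cell markers was 1800 to 1920 CPM treated and 2420 to 2560 CPM untreated, with 7 of 10 falling. The most abundant was Trbc2 with a change of -0.32 (limma adjusted p = 0.0158), whose call was lost without treated library 1 or 3. Lat and Cd2, named after their values were seen, were also among the falls. The call of Lat was lost on leaving out any library except untreated library 2. That of Cd2 was lost without treated library 1, 2 or 3 or untreated library 3. Myeloid markers summed to 1070 to 1170 CPM treated and 1310 to 1490 CPM untreated, with 4 of 10 falling, S100a8 among them at -0.39 (limma adjusted p = 0.00803). Erythroid markers summed to 6460 to 6850 CPM treated and 6860 to 8100 CPM untreated, so that the groups nearly touched. Of these 10, 4 fell and 1 rose, with a median change of -0.08. The alpha globin gene Hba-a1 fell by 0.37 (limma adjusted p = 0.0288), the beta globin gene Hbb-bs rose by 0.35 (limma adjusted p = 0.0237), and Hbb-bt had a difference of 0.18 (limma adjusted p = 0.143), the beta globin genes being named after their values were seen. B cell markers summed to 79.2 to 88.2 CPM and 96.6 to 101 CPM, with 2 of 7 falling and Pax5, Vpreb1 and Igll1 without a row, and the B cell factor gene Ebf1 had a difference of -0.09 (limma adjusted p = 0.702). Markers of natural killer cells (6.68 to 8.05 CPM against 5.64 to 13.8 CPM) and of stroma (8.75 to 13.8 CPM against 10.6 to 14.2 CPM) were near 0, most had no row, and their leading genes Fcer1g and Sparc did not pass (limma adjusted p = 0.393 and 0.172). Other blood cells also make Myb, Runx1, Ets1 and Ikzf1, and the part of these cells in the changes was not tested. In bulk samples, fewer cells of a type and less RNA per cell cannot be told apart.

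Features of the 10 genes that their choice did not use are given as descriptions, with no test. All 10 spanned more of the genome than the median tested gene. Their spans from the first to the last annotated base had a median of 90.6 kb, from 30.6 kb for Tcf7 to 305 kb for Tox, beside 18.5 kb over 12326 tested genes. Their annotated 3' untranslated regions had a median length of 2.12 kb beside 1.02 kb over 10387 genes, and that of Myb, at 897 bases, was under the median of all genes. The pentamer ATTTA, a word found in elements that destabilise RNA, occurred at a median of 2.37 per kb of that region beside 1.26 per kb over the same genes. Gata3 had 6 in 1292 bases (4.64 per kb), Myb 4 in 897 bases (4.46 per kb) and Tox 8 in 2072 bases (3.86 per kb). The density was 3.34 per kb for Runx1, 2.40 per kb for Bcl11b, 2.33 per kb for Lef1 and 1.77 per kb for Ets1. Ikzf1 (4 in 3345 bases), Runx3 (0.463 per kb) and Tcf7, with none in 1512 bases, lay under the median of all genes. The part of these features in the changes was not tested.

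The other 6 genes lie, on mm10 as annotated by GENCODE M21, at chr3:131110471-131224356 on the plus strand (Lef1) and chr12:107910403-108003602 on the minus strand (Bcl11b). Myb is at chr10:21124935-21160984 on the minus strand, Ets1 at chr9:32636221-32757820 on the plus strand, Ikzf1 at chr11:11685003-11772926 on the plus strand and Tox at chr4:6686353-6991557 on the minus strand. All of the 10 except Bcl11b have an annotated gene that overlaps them, most often an antisense RNA, and only the 2 neighbours of Tcf7 given above have a row in the table.

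The RefSeq promoter table (build GRCm38.p6, 250 bases before to 50 bases after a start) held 15 windows for 8 of the 10 factors, with Ets1 and Tox having none. Motifs were searched on both strands as exact words. The GATA word was AGATAA, found in 1 of the 15 windows, the fourth Lef1 window, and in 6.43% of the 10902 windows of tested genes. The RUNX word was TGTGGT, found in 2 windows, the ones printed for Runx1 and Runx3, and in 12.9% of the windows of tested genes. The TCF and LEF word was CTTTGA, found in 2 windows, of Lef1 and Bcl11b, and in 11.9% of tested windows. The ETS word was CCGGAA, found in 3 windows, of Gata3, Tcf7 and Runx1, and in 29.2% of tested windows. The MYB word was CAACTG, found in the printed Runx1 window and in 10.4% of tested windows. The Ikaros word was TGGGAA, found in 4 windows, of which 3 belong to Lef1, with 2 of them overlapping at 1 shared match, and the other is that of Runx3, and in 22.5% of tested windows. No word was found in the windows of Myb or Ikzf1, which says only that these letters are absent there. A match is a word in the sequence and not a bound site, and binding was not measured in these libraries.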

How the data were processed

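Libraries were QuantSeq 3' mRNA libraries from 100 ng of total RNA. Build mm10 was used upstream, and the submitters' processing notes name cutadapt 1.9, HISAT2 2.1.0, Subread 1.5.0 with featureCounts, and limma. No source used here gave the strand setting, annotation or filters. As deposited by the authors, the values were log2 numbers in 1 table with 1 column per library. A scale near log2 CPM was inferred from the values, whose powers of 2 summed to between 994114 and 994182 per library, with library medians of 4.01 to 4.02. Exact values shared between libraries, beside these near-equal sums and medians, are what a normalisation to a common distribution would leave. A total shift in RNA per cell, or a shift in the whole distribution of levels, would therefore not be visible.

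Columns were matched to samples by the treatment and the number after the letter S in their names. The names number the libraries of a group 1 to 3, whereas the sample titles number all of them 1, so whether they are technical repeats is not known. Rows averaging 0 or more on the log2 scale were tested (631 rows were left out) with limma 3.58.1 in R 4.3.3 (lmFit, eBayes with a mean-variance trend), untreated against panobinostat over all 6 libraries, no covariate, Benjamini-Hochberg threshold 0.05. No pseudocount was added. Depth was estimated from 200 steps between tied low values, on the assumption that levels are proportional to reads. Without molecular identifiers reads are not independent molecules, and counting errors cover counting only. Differences between 2 genes within a library were compared by exact permutation over the 20 assignments of libraries. Positions and 3' untranslated regions came from GENCODE M21, and promoter windows from RefSeq. Sequence and position work used Python 3.11.15, pandas 2.3.3 and, for figures, matplotlib 3.10.9.

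The 10 factors and all gene lists were chosen with earlier results of these data known. Named genes were the 10 factors, up to 6 with the smallest adjusted p from each other list, set relatives, the most abundant marker of each other cell type, and genes in the table that overlap a factor. Alternatives were other filters, a pseudocount of 1, other scalings, other spread models, library weights, a block for the column number and each library left out in turn.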

Additional observations from a re-analysis of the deposited data

How the results depend on the processing

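The values of the 10 factors were recomputed under 15 alternatives, which gave 150 values. Of these 140 kept their direction and their side of the threshold, 4 fell short of it (all Tox), 6 passed it (Ets1, Bcl11b and Lef1), and none changed direction. Some alternatives had little room to alter a value. Median and trimmed mean scaling moved the median change by only -0.000679 and 5.37e-05, and the filters do not enter a gene's own change. The 140 is therefore no measure of stability by itself. Gata3, Tcf7, Runx1, Runx3, Myb and Ikzf1 kept their side of the threshold in all 15. The number of factors that rose was 2 with robust empirical Bayes and 2 with library weights, and 1 to 2 with 1 library left out, Ets1 being the added one. With library weights 11 partners and 4 T-ALL oncogenic factors passed. With 1 library left out the counts that passed ranged from 4 to 9 for partners, 2 to 4 for T-ALL oncogenic factors and 8 to 15 for other T lineage factors, and the number of all genes that rose from 1587 to 2664. The difference between the changes of Tcf7 and Lef1 ranged from 1.52 to 1.67, and of Runx1 and Runx3 from 0.71 to 0.96. Correlations of same-numbered deviations were -0.04, 0.10 and -0.01. With 3 libraries per group these values cannot settle whether column numbers pair the libraries. A fit with the replicate block called 4148 genes and 7 factors, with Lef1 at -0.32 passing (limma adjusted p = 0.0357). Low read numbers limit Ikzf4, Tle2, Nkd1 and Myc.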
